A study of Mus musculus with 6 samples.

Results

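In cap analysis of gene expression (CAGE), RNAs are caught by their 5′ cap and a short tag is read from the capped end, so that each tag marks a transcription start. The 10 genes described here are Dazl, Ddx4, Mael, Sycp1, Sycp3, Hormad1, Stk31, Tex19.1, Slc25a31 and Tex101. They are a list of germline genes taken by name out of 55450 annotated genes, with earlier results of these data known. For each gene, tags within 500 bp of any annotated 5′ end on its own strand were summed and divided by the library total, giving tags per 1000000 tags of the library (TPM). Nuclear RNA of 2 mouse cell lines was measured, with 3 libraries for each. The first is R08, a male mouse embryonic stem cell (mESC) line kept without feeder cells in medium with serum and leukemia inhibitory factor. The second is Oli-neu, an immortalised line derived from mouse oligodendrocyte progenitor cells (mOPC) and grown with bFGF, PDGF-BB and thyroid hormones. No treatment separates the libraries of a line, and each cell type is represented by 1 line.

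Germline genes are those whose products serve the making of eggs and sperm: the piRNA pathway that silences transposons, RNA-binding proteins that control translation in germ cells, and the proteins that pair and recombine chromosomes in meiosis. In most somatic cells their CpG-rich promoters are DNA-methylated and silent. In embryonic stem cells a Polycomb complex, PRC1.6, which holds the DNA-binding proteins E2F6, MGA and MAX, is known to keep many of them low.

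The mESC libraries held between 16657021 and 37888141 tags and the mOPC libraries between 21925299 and 40928704. The labelled cell types were checked against their markers. All 7 mESC markers were higher in mESC, with summed levels between 2840 and 2976 TPM against 41.2 to 46.0 in mOPC. Of 7 progenitor markers, 6 were higher in mOPC, where the 7 summed to between 1519 and 1615 against 7.23 to 8.17 in mESC. Pdgfra differed least of the 6, with 8.33 ± 0.444 TPM (SD, n = 3) in mOPC against 5.51 ± 0.165 in mESC. Nkx2-2, a defining transcription factor of the lineage, had 0 tags in all 3 mOPC libraries. All mESC files carry one library label and all mOPC files another, so that cell type and library preparation cannot be told apart. In these bulk libraries, fewer cells of a type and less RNA per cell cannot be told apart either.

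The promoters of 6 of the 10 genes are shown first, chosen for the reasons given under the lines. Each line gives 150 bases of the RefSeq promoter on the gene's strand, from 120 bases before the position where most mESC tags began to 29 bases after it. Capitals mark that position as a single base, and also TCCCGC (the core letters read by E2F proteins), CACGTG (the E-box read by MAX partners) and TATAAA, each on either strand. Build GRCm38.p6 (mm10) was used. The stretches are chr3:95559558-95559707 on the plus strand for Hormad1, chr3:102936072-102936221 on the minus strand for Sycp1, chr3:40708759-40708908 on the plus strand for Slc25a31, chr1:166238712-166238861 on the minus strand for Mael, chr11:121146032-121146181 on the plus strand for Tex19.1, and chr17:50293571-50293720 on the minus strand for Dazl.
Hormad1: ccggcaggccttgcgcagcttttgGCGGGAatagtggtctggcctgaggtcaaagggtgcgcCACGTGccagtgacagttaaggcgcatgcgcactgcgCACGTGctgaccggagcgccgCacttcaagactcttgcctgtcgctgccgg
Sycp1: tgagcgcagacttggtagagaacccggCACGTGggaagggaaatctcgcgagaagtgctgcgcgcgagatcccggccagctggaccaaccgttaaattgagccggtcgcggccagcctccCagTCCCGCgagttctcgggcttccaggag
Slc25a31: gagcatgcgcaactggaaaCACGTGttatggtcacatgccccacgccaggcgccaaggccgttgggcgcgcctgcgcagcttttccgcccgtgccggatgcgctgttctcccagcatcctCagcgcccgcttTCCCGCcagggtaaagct
Mael: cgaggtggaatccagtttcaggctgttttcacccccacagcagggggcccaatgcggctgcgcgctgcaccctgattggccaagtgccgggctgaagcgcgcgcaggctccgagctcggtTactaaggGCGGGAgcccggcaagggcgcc
Tex19.1: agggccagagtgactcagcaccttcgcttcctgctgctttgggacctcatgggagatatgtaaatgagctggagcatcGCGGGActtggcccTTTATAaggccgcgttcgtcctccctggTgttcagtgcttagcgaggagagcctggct
Dazl: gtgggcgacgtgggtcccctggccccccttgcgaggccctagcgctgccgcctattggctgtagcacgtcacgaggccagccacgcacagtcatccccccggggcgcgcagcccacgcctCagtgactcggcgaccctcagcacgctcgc
These 6 were chosen to show both motifs inside the printed line (the first 3) and an E2F core just inside the transcript (Mael). They also show a TATAAA word on the opposite strand beside an E2F core (Tex19.1) and a promoter with none of the 3 words (Dazl). Sycp3 and Ddx4, whose windows also hold both motifs, are not printed. In Ddx4 the E2F core is at −82 and the E-box at 25 from the most used position, where the E-box would run past the end of a line.

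All 10 genes were expressed above 0 tags in every mESC library, at levels that spanned more than 2 orders of magnitude, and 9 of them were at or close to 0 in mOPC. Together the 10 genes had between 228 and 237 TPM in the mESC libraries and between 0.208 and 0.502 in the mOPC libraries. Hormad1 alone gave 45.8% to 46.4% of the mESC sum, and Hormad1 and Sycp3 together 63.8% to 64.8%. Among protein-coding genes with at least 1 tag in mESC, the 10 genes ran from the 15.7th percentile (Tex101) to the 88.3rd (Hormad1), and 8 of them lay between the 30.9th and the 71.8th. The exception in mOPC was Tex101, which was equally low in both cell types.

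**Figure D1:**
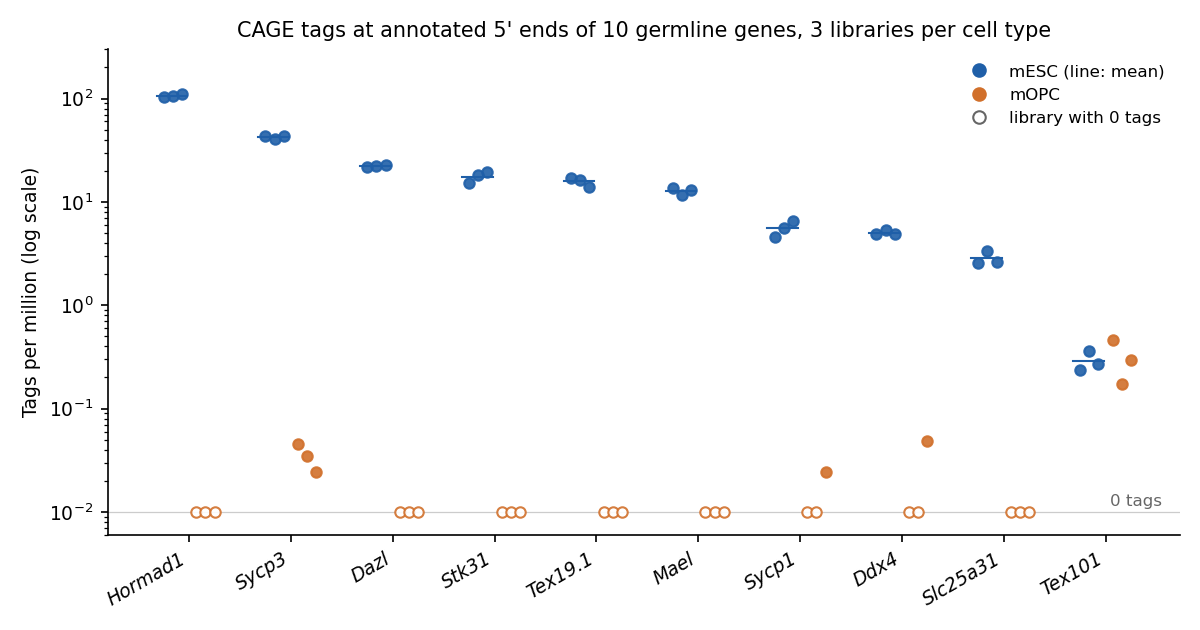
Levels in TPM (log axis) of the 10 genes in each of the 3 mESC libraries (blue, with the mean as a line) and the 3 mOPC libraries (orange); open circles at the bottom are libraries with 0 tags. Hormad1 leads at 107 TPM in mESC, 6 genes have 0 tags in every mOPC library, and the points of both cell types overlap for Tex101 alone.

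Of the genes for chromosome pairing, Hormad1 and Sycp3 had the highest levels of the 10 in mESC, and Sycp1 was lower. Hormad1 (chr3:95559677-95587671, plus strand), a HORMA-domain protein that marks unpaired chromosome axes, had 104, 106 and 110 TPM in the mESC libraries, from 3950, 1765 and 2028 tags. It had 0 tags in all mOPC libraries, although these hold more tags in total. Against a floor of 3 tags over the pooled mOPC libraries, or 0.0327 TPM, Hormad1 was at least 3243-fold higher in mESC. Sycp3 (chr10:88459569-88473236, plus strand), a component of the axial element, followed with 43.5, 40.8 and 43.7 TPM in mESC. In mOPC it had 1 tag in each of the 3 libraries. The ratio of pooled levels was 1312, with a 95% exact binomial interval from 449 to 6367 that covers counting error only. The ratio moved with the window, to 3922 from 1 mOPC tag within 100 bp and to 246 from 16 mOPC tags within 1000 bp. Sycp1 (chr3:102818499-102936100, minus strand), which forms the transverse filaments that hold paired axes together, had 4.57, 5.64 and 6.57 TPM in mESC. It had 0, 0 and 1 tag in mOPC, a ratio of 488 (87.0 to 19306). All 3 mESC libraries lay above all 3 mOPC libraries for each of these genes, and the upper limits of the last 2 ratios are loose because so few mOPC tags stand behind them.

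The genes of RNA regulation and of the piRNA pathway had intermediate levels. Dazl (chr17:50279395-50293636, minus strand), an RNA-binding protein that promotes translation in germ cells, had 21.8, 22.3 and 22.6 TPM in mESC. It had 0 tags in mOPC (1 within 1000 bp) and was at least 676-fold higher in mESC. Mael (chr1:166201201-166238747, minus strand), a piRNA pathway protein of the germ granule called nuage, had 13.7, 11.6 and 13.0 TPM in mESC and 0 tags in mOPC, at least 399-fold less. Ddx4 (chr13:112598333-112652475, minus strand), the DEAD-box helicase Vasa that is a defining protein of nuage, was lower, with 4.86, 5.34 and 4.88 TPM in mESC. Its mOPC libraries had 0, 0 and 2 tags, a ratio of 228 (62.7 to 1890), and within 100 bp they had 0 tags, a bound of at least 152. The mESC and mOPC libraries did not overlap for any of these 3 genes.

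The remaining genes have other roles in germ cells. Stk31 (chr6:49395604-49469501, plus strand), a germ cell protein with a Tudor domain and a kinase-like domain, had 15.2, 18.2 and 19.4 TPM in mESC and 0 tags in mOPC, at least 517-fold less. Tex19.1 (chr11:121146143-121148319, plus strand), which restrains retrotransposons in germ cells and placenta, had 17.2, 16.5 and 14.1 TPM in mESC and 0 tags in mOPC, at least 496-fold less. Slc25a31 (chr3:40708855-40726096, plus strand), the germ cell form of the mitochondrial ADP/ATP carrier, was the lowest of the 9 with 2.59, 3.36 and 2.60 TPM in mESC. With 0 tags in mOPC, it was at least 84.6-fold higher in mESC, and within 1000 bp it had 2 mOPC tags against 204. For these 3 genes too, every mESC library was above every mOPC library.

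Tex101 (chr7:24668007-24676675, minus strand), a membrane-anchored glycoprotein of germ cells, did not follow the others. It had 9, 6 and 5 tags in the mESC libraries and 10, 5 and 12 tags in the mOPC libraries. These are 0.238, 0.360 and 0.271 TPM in mESC against 0.456, 0.173 and 0.293 in mOPC, and the groups overlapped. The pooled ratio of mESC to mOPC was 0.931, with an interval from 0.495 to 1.72, so that a difference within this interval was not detectable at this depth. Tex101 did not pass the filter on low counts. In a fit of all genes without the filter, its log2 fold change of mOPC over mESC was 0.19 ± 0.51 (SE; edgeR adjusted p = 0.742).

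CAGE counts each RNA once, at its 5′ end, so that levels of different genes can be set in order without dividing by their length. The means in mESC were 107 ± 2.98 TPM (SD, n = 3) for Hormad1, 42.7 ± 1.6005 for Sycp3, 22.2 ± 0.434 for Dazl, 17.6 ± 2.18 for Stk31, 15.9 ± 1.65 for Tex19.1 and 12.8 ± 1.08 for Mael. Sycp1 followed at 5.59 ± 1.00, Ddx4 at 5.03 ± 0.273, Slc25a31 at 2.85 ± 0.442 and Tex101 at 0.290 ± 0.0634. In this order the libraries of Stk31 and Tex19.1 overlapped, and so did those of Sycp1 and Ddx4, while all other neighbours were separated in every library. The windows were not of one size, from 1001 bp for Slc25a31 with a single annotated 5′ end to 4748 bp for Dazl with 6. No window was shared with another gene on the same strand.

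Of the 10 genes, 9 passed the filter on low counts, and they passed it through the mESC libraries alone, which fixes their direction. All 9 were called higher in mESC by the quasi-likelihood test of edgeR, with Benjamini-Hochberg adjusted p between 1.367e-46 (Hormad1) and 1.049e-20 (Slc25a31). Calls of this kind were common: 91% of the 18490 genes tested were called in either direction, and 48.9% were called higher in mESC. The near absence in mOPC was less common. Of 15351 genes with at least 1 TPM in mESC, 11.1% had at most 3 tags in the pooled mOPC libraries, and among 12737 protein-coding genes the share was 10.1%. All 9 listed genes above 1 TPM were of this kind. The 10 genes were chosen with earlier results of these data known, so that this is a description and no test.

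**Figure D2:**
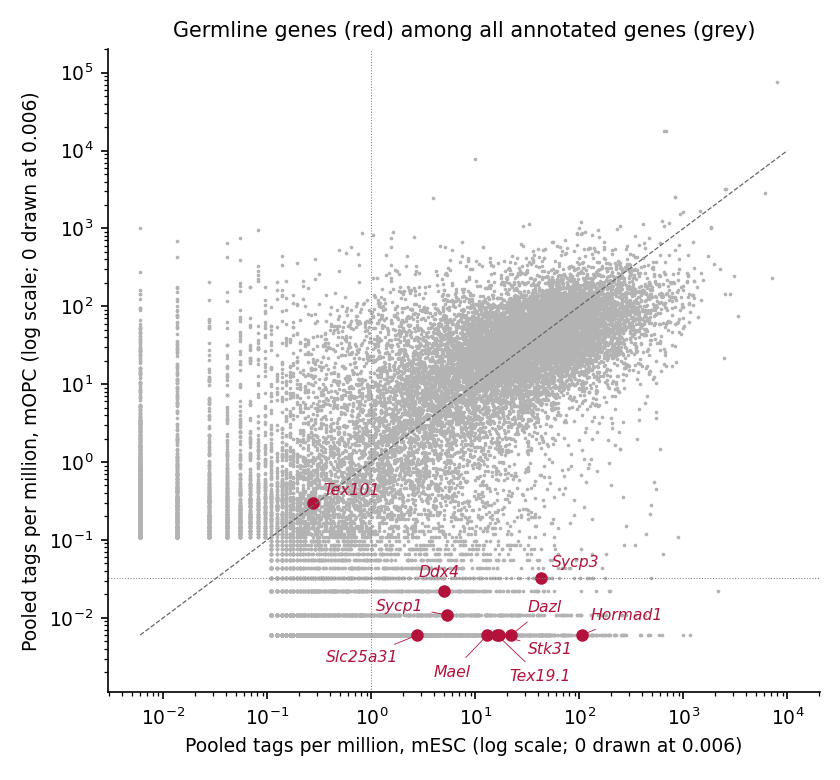
Pooled TPM of each annotated gene with at least 0.1 in either cell type (grey) and of the 10 genes (red), mESC on the horizontal and mOPC on the vertical log axis; genes with 0 tags are drawn at 0.006, the dashed line is equality, and the dotted lines are 1 TPM in mESC and 3 pooled tags in mOPC. Of the 10 genes, 9 lie at or under the line of 3 tags, along the middle of the mESC range, and Tex101 lies on the diagonal.

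The position of the tags differed from gene to gene. A single position took 74.1% of the mESC tags of Dazl, 67.2% of those of Sycp3, 59.5% of those of Hormad1 and 55.2% of those of Sycp1. Mael and Tex19.1 had most of their tags within a few bases, and the central 80% of tags spanned 5 bp in Mael and 6 bp in Tex19.1. At the other end, the most used position took 17.8% of the tags of Slc25a31, 17.1% of those of Ddx4 and 12.8% of those of Stk31, whose central 80% of tags spanned 88, 51 and 42 bp. Over 12389 protein-coding genes with at least 100 mESC tags, the most used position took a median of 18.3% (quartiles 12.9% and 27.2%) and the span had a median of 55 bp (37 and 102). Thus 6 of the 10 genes had a share at the most used position above the upper quartile. The other 3 with enough tags were near the median share or under the lower quartile. By span, Sycp1 (53 bp), Ddx4 (51 bp) and Stk31 (42 bp) lay between the lower quartile and the median, and Slc25a31 (88 bp) lay above the median.

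The most used position was the same in all 3 mESC libraries for Dazl, Mael, Sycp1, Sycp3, Hormad1 and Tex19.1. It moved by 1 base in one library for Ddx4, while in one library of Stk31 another start of the cluster, at 49395567 and not 49395546, came first. For Slc25a31, with 48 to 98 tags a library, it differed in each of the 3, at 40708879, 40708931 and 40708882. Several starts were away from the 5′ end of the gene record. Those of Stk31 lay before it, with 98.5% of the tags upstream and the most used position at −58. The most used position lay 94 bp inside the record of Sycp3, 111 bp inside that of Ddx4 and 36 bp inside that of Dazl. For Sycp3 and Dazl, another annotated 5′ end lies 1 base downstream of that position. Tex101 started 4632 bp inside its record, 7 bp inside a second annotated 5′ end, and all 20 mESC tags and 26 of 27 mOPC tags began within 50 bp of that position.

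**Figure D3:**
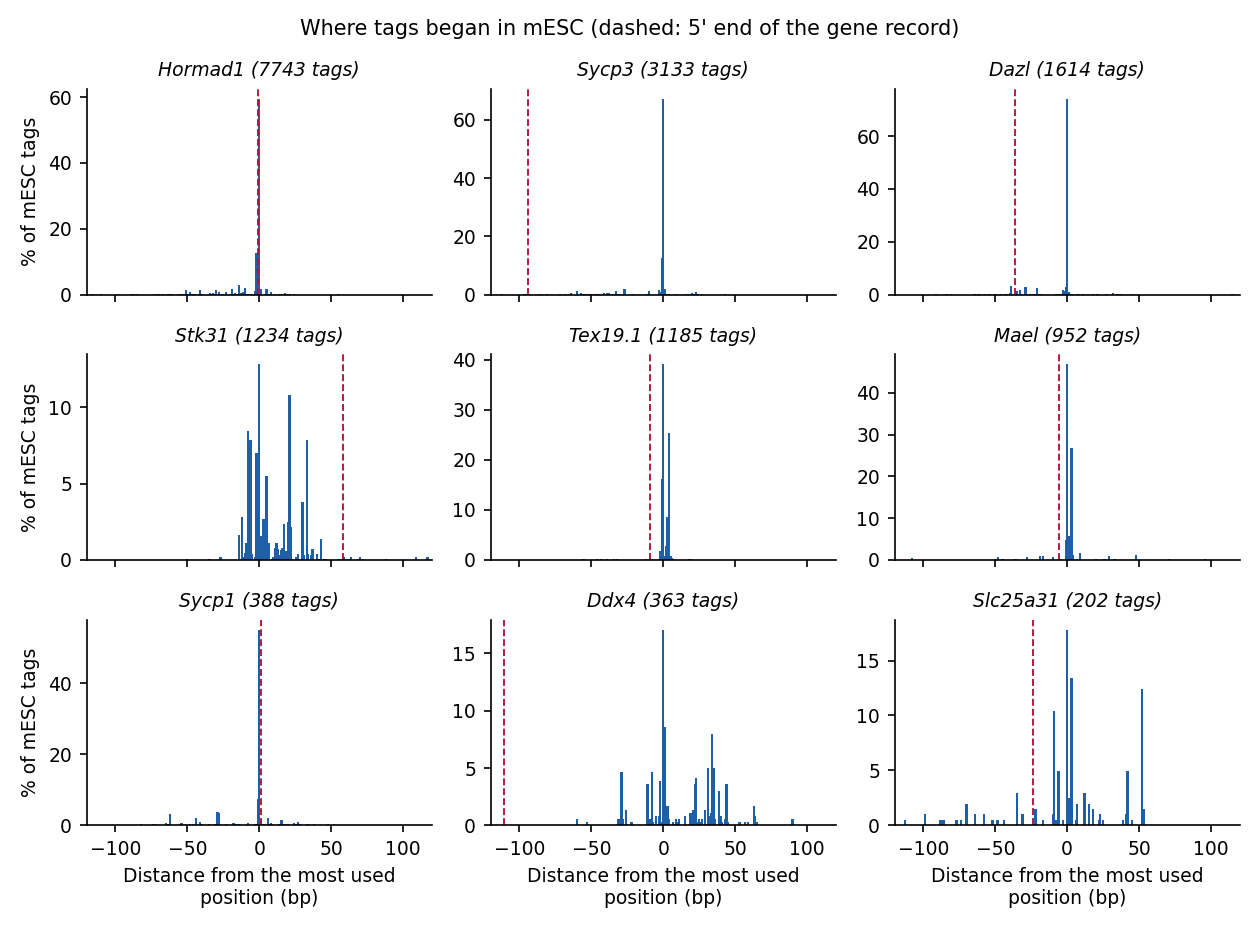
Share of a gene's mESC tags (vertical axis, percent, on a scale of its own for each gene) by distance in bp from its most used position, 3 libraries pooled; the dashed line is the 5′ end of the gene record, and the numbers in the titles are tags. Dazl and Sycp3 show a single spike, Mael and Tex19.1 a narrow cluster, and Stk31, Ddx4 and Slc25a31 many starts with no dominant one.

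The few mOPC tags of the 9 genes can be placed in the same way. The single tag of Sycp1 in mOPC began at the most used mESC position. The 3 tags of Sycp3 began at −376, −1 and 446 from the most used mESC position, and the 2 tags of Ddx4 at −264 and 231. Of these 6 tags, 2 thus began within 1 base of the mESC start and the other 4 over 200 bp away. Without mOPC replicate 3, a setting chosen after the data were seen, Sycp1 and Ddx4 had 0 tags in mOPC, and the bounds were then at least 89.97-fold and 84.2-fold, in place of the ratios of 488 and 228. The bounds of the genes at 0 tags fell with it too, by the smaller total, for example to 1795-fold for Hormad1 and 374-fold for Dazl.

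All 10 genes were matched to a RefSeq promoter window, from 250 bases before to 50 bases after an annotated start. The E2F core TCCCGC was in the windows of 7 of the 10 genes and in 26.6% of 17492 protein-coding windows of the same length. The E-box CACGTG was in 7 of the 10 and in 7.98% of all windows. Both stood together in 6 of the 10 genes (Hormad1, Sycp1, Sycp3, Slc25a31, Mael and Ddx4) and in 2.81% of all windows, and in none of these 6 did they overlap. The window of Sycp3 ends 27 bases before its most used start and holds 349 of its 3133 mESC tags, so that its words are counted in a stretch upstream of that start. TATAAA was in 2 of the 10, at −28 from the most used start in Tex19.1 and at −171 in Stk31, and in 13.0% of all windows. Dazl and Tex101 held none of the 3 words. The matches are a description of letters, since binding was not measured.

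In the lines printed above, Hormad1 has an E-box at −58 and another at −21, with an E2F core at −96, counted from the most used position to the first base of the word. In Sycp1 the E2F core begins at 3 and the E-box at −93, and in Slc25a31 at 12 and −101. The E2F core of Mael at 8 is in the transcribed part as well, and its second copy at −146 and its E-box at −226 lie outside the printed stretch. In Tex19.1 the E2F core at −42 is close to the TATAAA word, which reads on the opposite strand. On the gene's own strand, bases that overlap this word read TATAAG, which was not searched for. The windows of the 10 genes had between 56.7% and 72% G and C, where the median of all windows was 57% (quartiles 48.3% and 65%). They held 15 to 38 CpG dinucleotides, at least as many as the median window with 14, and the ratio of observed to expected CpG was 0.575 (Tex19.1) to 0.978 (Ddx4) against a median of 0.596.

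The deposited positions stood 1 base before the usual initiator letters. Transcription usually starts at a purine that follows a pyrimidine. At the most used positions of 9243 protein-coding genes, this pair was present in 1.28%, but 1 base downstream it was present in 87.7% of 9160, on both strands alike and in 8 of the 8 listed genes that could be read. In the 6 printed lines, the single base in capitals is accordingly a pyrimidine with a purine after it, as in the Ca of Hormad1. The cause was not tested, and the distances above are given as deposited.

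Other genes of the same pathways were counted next, from lists that do not hold the 10 genes. These lists too were chosen with earlier results of these data known. In the list of the piRNA pathway and nuage, 14 of 19 genes passed the filter, of which 11 were higher in mESC and 3 in mOPC (48.9% of all genes tested were higher in mESC). Tdrd12, a Tudor protein of piRNA amplification, had 73.9 ± 4.98 TPM in mESC (SD, n = 3) and 0 tags in mOPC, at least 2211-fold less. Rnf17 had 55.1 ± 7.52 and 0 tags (at least 1613-fold). Gtsf1, a cofactor of PIWI proteins, had 3.62 ± 0.481 and 0 tags (at least 114-fold), and Mov10l1, the helicase of piRNA processing, had 905 pooled tags in mESC against 1. The 3 genes on the other side were Tdrkh (5.22 ± 0.816 in mESC against 165 ± 18.8 in mOPC), Ddx25 (9.39 ± 0.911 against 45.2 ± 1.95) and Tdrd7 (2.61 ± 0.160 against 24.1 ± 1.67). The window of Tdrkh is shared with the gene model Gm42463. Of the 14, 6 had at most 3 pooled mOPC tags and so passed the filter through mESC, which fixes their direction. The same holds for Tdrd5, Pld6 and Tdrd9, with 4, 5 and 12 pooled mOPC tags. Of 13 genes above 1 TPM in mESC, 6 were at most at 3 pooled mOPC tags, where the share over all genes was 11.1%.

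In the list of the meiotic chromosome axis and the synaptonemal complex, 13 of 14 genes passed the filter and were called higher in mESC (48.9% of all genes tested were). Of these 13, 10 had at most 3 pooled mOPC tags and could pass only through mESC, which fixes their direction. Hormad2 and Terb2, with 11 and 4 pooled mOPC tags, also passed through mESC alone, so that only Stag3 was free to go either way. Rad21l had 0 tags in all libraries. Stag3, a cohesin subunit, was the one gene of the list above 1 TPM in mOPC, with 89.0 in mESC against 40.6. Smc1b, the meiotic cohesin subunit, had 149 ± 18.5 TPM in mESC, above Hormad1, and 0 tags in mOPC. Syce2, of the central element, had 128 ± 15.3 in mESC and 3 pooled tags in mOPC. Meioc, which lets germ cells enter an extended meiotic prophase, had 71.3 ± 7.20 and 0 tags, and Majin, which attaches telomeres to the nuclear envelope, 11.8 ± 1.30 and 0 tags. Of 12 genes above 1 TPM in mESC, 9 had at most 3 pooled mOPC tags, where the share over all genes was 11.1%.

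Genes of meiotic recombination went both ways, as did those of the piRNA list. Of 18 matched genes 16 passed the filter, 13 higher in mESC and 3 in mOPC (48.9% of all genes tested were higher in mESC). Of the 16, 8 had at most 3 pooled mOPC tags and passed the filter through mESC alone, as did Msh4 with 16, which fixes their direction. Of 14 genes above 1 TPM in mESC, 6 were at most at 3 pooled mOPC tags, where the share over all genes was 11.1%. The recombinase gene Dmc1 had 22.1 ± 1.84 TPM in mESC and 1 pooled tag in mOPC. Mlh3, of the crossover nuclease, had 46.9 ± 3.13 and 1 tag, Tex11 had 14.5 ± 0.534 and 0 tags, and the helicase gene Hfm1 had 7.54 ± 0.908 and 0 tags. Prdm9, the methyltransferase that places recombination hotspots, went the other way with 9.34 ± 1.18 in mESC and 50.8 ± 2.31 in mOPC. So did Zcwpw1, a reader of PRDM9 marks (22.6 ± 0.545 against 94.2 ± 4.39), and Msh5 (8.10 ± 0.716 against 36.5 ± 2.49). Spo11, whose product makes the meiotic breaks, did not pass the filter and had under 0.1 TPM in both cell types.

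Of 20 genes of germ cell specification and maintenance, 17 passed the filter, 15 higher in mESC and 2 in mOPC (48.9% of all genes tested were higher in mESC). Of the 17, 9 had at most 3 pooled mOPC tags and passed the filter through mESC alone, which fixes their direction. The same holds for Nanos3 and Dnd1, with 13 and 6 pooled mOPC tags. Gfra1 and Zbtb16, with 15 and 28 pooled mESC tags, passed through mOPC. Of 14 genes above 1 TPM in mESC, 8 were at most at 3 pooled mOPC tags, where the share over all genes was 11.1%. Dppa4 (42.3 ± 3.28 TPM), Dppa2 (16.5 ± 0.605), Sohlh2 (9.43 ± 0.909) and Dppa3 (8.14 ± 0.982) were present in mESC and had 0 tags in mOPC. The study lists Dppa2, Dppa3 and Dppa4 among its mESC markers. Gfra1, the GDNF co-receptor of spermatogonial stem cells, and Zbtb16 were higher in mOPC, at 67.5 ± 3.99 and 30.1 ± 0.508 against 0.166 ± 0.159 and 0.354 ± 0.151. Of 15 late genes of spermatids, 4 passed the filter, 2 higher in mESC (Ldhc, 1.42 ± 0.440 against 0 tags, was one), 1 in mOPC (Zpbp, 2.80 ± 0.391 against 9.15 ± 1.85) and 1 not called. The protamine genes Prm1 and Prm2 had 0 tags in all 6 libraries.

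**Figure D4:**
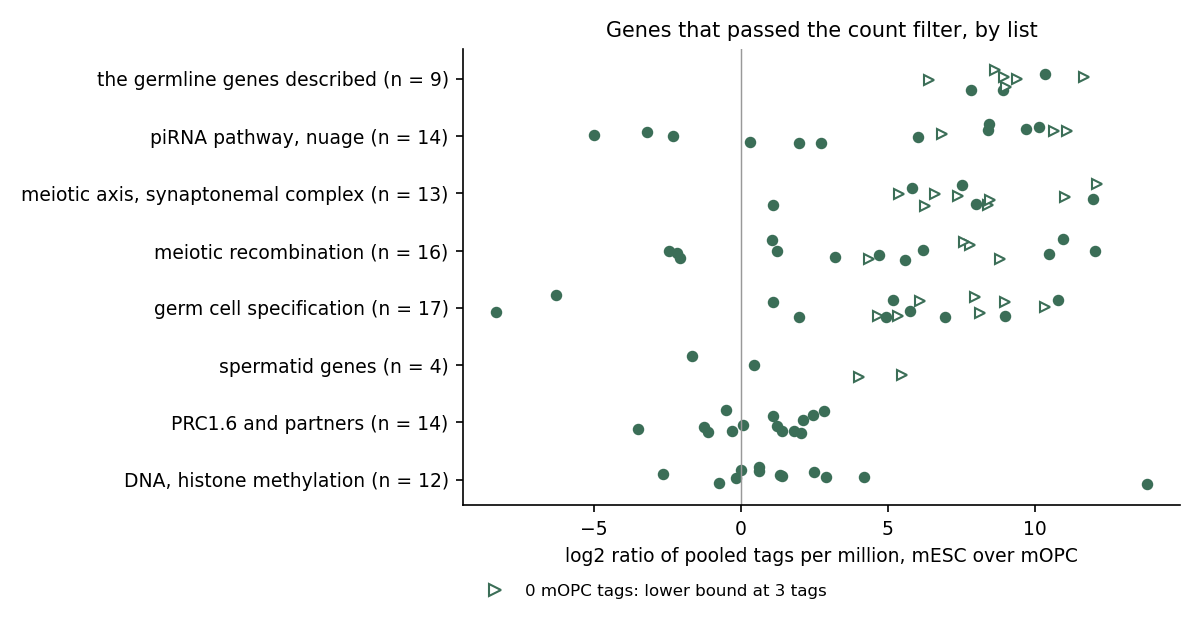
The log2 ratio of pooled TPM, mESC over mOPC, for each gene that passed the count filter, by list; triangles are genes with 0 mOPC tags, drawn at the bound that 3 tags give. Genes with few mOPC tags, to the right, passed the filter through mESC alone. Those with at most 3 pooled mOPC tags are 10 among the 13 of the meiotic axis list, 0 among the 14 of PRC1.6 and 1 among the 12 methylation enzymes. Some genes above 3 tags, such as Hormad2 with 11, also passed through mESC alone.

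The genes of PRC1.6 were expressed in both cell types. All 14 were above 1 TPM in each, 8 were higher in mESC, 5 in mOPC and 1 was not called (48.9% of all genes tested were higher in mESC). The median log2 ratio of mESC over mOPC was 1.16, against 0.16 over all genes tested. Cbx3, a heterochromatin protein, had 471 ± 20.2 TPM in mESC and 84.9 ± 2.73 in mOPC. Mga, which binds the E-box with MAX, had 123 ± 9.03 and 27.8 ± 2.53, and Hdac1 had 28.2 ± 2.92 and 3.88 ± 0.120. Pcgf6, the subunit that defines the complex, was higher in mOPC (32.6 ± 1.09 against 77.9 ± 7.09), as were Yaf2 (7.89 ± 0.436 against 89.7 ± 5.12) and Ring1 (4.07 ± 0.195 against 8.94 ± 1.31), whose window is shared with Gm26940 and Mir219a-1. Of 12 enzymes and cofactors of DNA and histone methylation, 8 were higher in mESC, 2 in mOPC and 2 were not called. Dnmt3l, the cofactor of the de novo DNA methyltransferases, had 154 ± 16.1 TPM in mESC and 1 pooled tag in mOPC. Tet1, which oxidises methylcytosine, had 1031 ± 50.3 in mESC against 56.2 ± 1.85 in mOPC (its window is shared with Gm26479), and Trim28 had 323 ± 30.7 against 43.9 ± 3.07. Tet3 (16.2 ± 1.48 in mESC against 98.9 ± 5.78) and Ehmt2 (45.3 ± 3.35 against 77.9 ± 4.27) were higher in mOPC.

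Markers of cells that could stand in an mESC culture were read beside these levels. Of 6 genes of 2-cell-like cells, Zscan4c had 7.46 ± 0.495 TPM in mESC against 0.135 ± 0.117 in mOPC, and the other 5 were under 0.3 in both, with sums over the list of 7.32 to 8.47 in mESC and 0.0456 to 0.277 in mOPC. Of 5 primitive endoderm genes, Gata4 (10.9 ± 1.1996), Gata6 (10.2 ± 0.473), Sox7 (8.37 ± 1.63) and Sox17 (2.29 ± 0.560) were higher in mESC, with 2 pooled mOPC tags for Gata4 and 0 for the others, and Dab2 was higher in mOPC (47.5 ± 6.31 against 58.7 ± 3.10), with sums of 72.9 to 90.4 in mESC and 56.4 to 62.3 in mOPC. Of 5 spermatogonial markers, Nanos2 had 0 tags in all libraries, Sohlh1 3 pooled tags in mESC and 0 in mOPC, and Sall4, which mESCs also use, 126 ± 13.7 in mESC and 0 tags in mOPC. The other 2, Gfra1 and Zbtb16, were higher in mOPC, as given above. Summed levels of that list were 114 to 140 in mESC and 92.5 to 101 in mOPC. Their part in the levels of the 10 genes was not tested.

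The nearest protein-coding genes did not share the pattern as a rule. Golph3l, 1263 bp downstream of Hormad1, had 35.3 ± 0.626 TPM in mESC and 35.0 ± 1.89 in mOPC (log2 fold change −0.04 ± 0.09, SE; edgeR adjusted p = 0.664). Slc38a9, beside Ddx4, was higher in mOPC (42.3 ± 0.732 against 85.4 ± 1.79), as were Tspan2 beside Sycp1 (45.3 ± 7.38 against 61.9 ± 7.90, with overlapping libraries), Ildr2 beside Mael (2.11 ± 0.185 against 7.52 ± 0.9497) and Hspa4l beside Slc25a31 (12.7 ± 0.684 against 48.1 ± 0.871). Gnptab beside Sycp3, Fam221a beside Stk31 and Intu beside Slc25a31 were higher in mESC but also expressed in mOPC, at 43.9 ± 1.91, 13.97 ± 1.27 and 11.9 ± 0.846 against 56.2 ± 3.23, 17.4 ± 0.484 and 32.4 ± 1.26. Plcl2 beside Dazl was not called (1.62 ± 0.418 against 1.89 ± 0.100; edgeR adjusted p = 0.289).

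A pair of neighbours were low or nearly absent in mOPC as well. Gpa33, 34691 bp from Mael, had 57.7 ± 2.11 TPM in mESC and 2 pooled tags in mOPC, and Rftn1, 88721 bp from Dazl, had 3.68 ± 0.398 and 0.109 ± 0.0257. The other neighbours were low in both cell types: Ctss, Npy, Tex19.2, Lypd3, Uts2r, Il31ra, Nr1h5, Mybpc1 and BC049730 were all under 0.3 TPM. Tex19.2, the paralog of Tex19.1 on the same chromosome, had 23 pooled tags in mESC and 0 in mOPC. Ctss, Npy and Lypd3 had 11, 8 and 5 pooled tags in mESC, with every mESC library above 0, and 0 in mOPC.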

How the data were processed

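CAGE libraries were made from nuclear RNA of R08 mESC and Oli-neu mOPC, 3 each. The authors deposited raw counts of tags by the position and strand of their first base on mm10, without normalization. The submitters' notes name CASAVA 1.8 and BWA 0.5.9, while the study's methods describe another aligner. No source says that the libraries of a line came from separate cultures, so p-values measure the spread between these libraries, which may be technical.

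Tags were summed per gene within 500 bp of GENCODE vM21 5′ ends on the same strand (Python 3.11.15, pandas 2.3.3; figures with matplotlib 3.10.9). Levels are TPM of the library total, 16657021 to 40928704 tags. Counts were tested with edgeR 4.0.16 in R 4.3.3 (TMM, filterByExpr, robust quasi-likelihood test, Benjamini-Hochberg adjusted p under 0.05; fold changes are mOPC over mESC), after a test on simulated counts; DESeq2 1.42.0 was an alternative. Overlapping gene models on a strand share tags. Bounds use 3 counts over the pooled libraries of a cell type, and intervals are exact binomial ones at 95%. Tags carry no molecular identifiers, so that both cover counting error only. RefSeq promoters of GRCm38.p6 were read as 300-base windows.

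The genes and lists were chosen with earlier results of these data known. The genes named are the 10 listed ones; from each pathway list up to 4 called genes with the largest change, all libraries of one cell type above the other and at least 1 TPM, and up to 3 called against the list's direction; the markers; and the nearest protein-coding neighbours. Spo11, Rad21l, Stag3, Prm1 and Prm2 were chosen after their values were seen.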

Additional observations from a re-analysis of the deposited data

Results flagged for a closer look

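Tags outside the counted windows exceeded 3 in several genes. On the gene's strand, inside the gene but outside the windows, the pooled mESC libraries held 254 tags in Sycp3, 99 in Hormad1, 50 in Stk31, 33 in Sycp1, 20 in Ddx4, 15 in Dazl, 12 in Tex19.1, 11 in Mael and 6 in Slc25a31. The pooled mOPC libraries held 48 in Sycp3, 32 in Ddx4 and 4 in Mael. In Sycp3, 111 of the 254 mESC tags began at one position, 88460791, which lies 1222 bp inside the gene record, while the 48 mOPC tags were spread over 45 positions. The 32 mOPC tags of Ddx4 were spread over 31 positions, against 20 mESC tags over 15 positions. On the opposite strand within the windows, mESC held 8 tags in Hormad1, 6 in Dazl, 5 in Sycp1 and 4 in Ddx4, and mOPC held 5 in Sycp3.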

How the results depend on the processing

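The number of genes called was 16832 in the fit as reported. It was 16603 with DESeq2, 16870 with DESeq2's size factors, 16864 with library totals, 21147 of 33317 without the filter, 15083 and 17978 with windows of 100 and 1000 bp, 17073 with tags of the gene body, 15618 with the 5′ end of the gene record alone, 15993 with libraries thinned to the smallest, and 16699 to 17477 with one library left out. All 9 genes that passed the filter were called higher in mESC in each of these settings. They passed it through mESC alone, which fixes their direction, so that repeating the call is no test of it. Same-numbered libraries shared only a number (correlations of their deviations from the group means 0.0229, 0.1425 and 0.0321). With the number as a replicate block, 16833 genes and the same count of 9 listed genes were called, and the block changed no call of these 9. Tags of the gene body gave fitted log2 fold changes nearer 0 for 6 genes (−3.97 in place of −7.60 for Ddx4, −4.74 in place of −11.91 for Stk31, −5.16 in place of −8.49 for Sycp1, −6.50 in place of −10.18 for Sycp3, −8.10 in place of −11.47 for Mael, −6.19 in place of −9.28 for Slc25a31). The gene body takes in other tags in mOPC. For Stk31 and Sycp1 it also leaves out the starts upstream of the record, which held 98.5% and 85.6% of their mESC window tags. Hormad1 (−14.03, −14.52), Dazl (−12.23, −12.26) and Tex19.1 (−11.81, −11.79) moved less. With 1000 bp they were −7.93 for Sycp3, −6.78 for Slc25a31 and −10.52 for Dazl (−12.26), from 16, 2 and 1 mOPC tags. Scaled to tags near annotated 5′ ends only, mESC levels were higher, by more than the SD for 7 of the 10 genes, for example 121.6 in place of 107 TPM for Hormad1. With positions of at least 2 tags only, the span of starts moved for Sycp1, from 53 to 31 bp. The median log2 fold change of all genes tested was −0.19 with TMM and −0.16 with library totals. Depth limits what can be said of Tex101, with 20 and 27 pooled tags, and of any mOPC level under 0.0327 TPM.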

Other observations

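Markers of other cell types gave mixed values. Of 4 neuronal genes, Rbfox3 (3.01 ± 0.425 TPM, SD, n = 3) and Snap25 (1.95 ± 0.426) were present in mESC with 0 tags in mOPC, Tubb3 was higher in mESC (2.24 ± 0.515 against 0.698 ± 0.256), and Syt1 was higher in mOPC (3.45 ± 0.293 against 88.3 ± 11.036). Of 5 fibroblast genes, Thy1 was higher in mESC (17.5 ± 3.16, with 2 pooled tags in mOPC), as was Pdgfrb (0.778 ± 0.0376 against 0.0278 ± 0.0251), and Col1a1 in mOPC (2.20 ± 0.0347 against 11.1 ± 1.32). Thy1 is also in the study's list of mESC markers, and Col1a2 and Col3a1 did not pass the filter on low counts. Of 4 astrocyte genes, Slc1a3 (39.7 ± 0.709 against 89.5 ± 6.81) and Gfap (0.516 ± 0.164 against 0.992 ± 0.161) were higher in mOPC and Aldh1l1 in mESC (8.48 ± 1.22, with 2 pooled tags in mOPC). Of 5 Sertoli and granulosa cell genes, Gata4 alone passed the filter on low counts.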
